A study of Sus scrofa with 8 samples.

Results

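ELAVL1, CNOT7 and STRBP encode proteins that bind messenger RNA or shorten its tail, and they were studied here as RNA-binding and mRNA decay regulators in pig backfat. They were found by their gene names among the 458 genes with a normalized read count for each pig, and each name matched 1 row. The 458 genes were those that the authors had called between the breeds, out of 10710 genes with a deposited mean, so all 3 genes were already known to differ and the tests below describe how far the pigs lay apart. The groups were 4 Alentejano (AL) and 4 Bísaro (BI) pigs, with 1 RNA library per pig. All 8 were adult purebred castrated males kept free range on commercial diets without restriction, with a labelled carcass weight of 150 kg. Dorsal subcutaneous fat was sampled at slaughter, and the AL pigs had been on trial longer. No agent or engineered allele was given in either breed, and their ages beyond that are not given in the sources used here. The breeds are local Portuguese populations, AL being the fatter type, so that breed, fatness and days on trial cannot be told apart.

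The lifetime of a messenger RNA is set in large part by its 3′ untranslated region (UTR) and its poly(A) tail. ELAVL1, also called HuR, binds AU-rich elements in 3′ UTRs and usually protects the transcript. CNOT7 is a deadenylase of the CCR4-NOT complex, which removes the tail and so starts decay. STRBP, the spermatid perinuclear RNA-binding protein, binds double-stranded RNA. In fat cells HuR and CCR4-NOT are known to act on transcripts of differentiation and lipid metabolism, whereas STRBP is best known from the testis.

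Levels are normalized read counts, which are reads divided by the size factor of the pig, a factor that the authors' DESeq2 run estimated to make libraries comparable. The size factors were 0.675 to 1.10 in AL and 1.06 to 1.46 in BI, so that they nearly separated the breeds, and 359708 to 883622 reads per pig fell on the 458 genes. Adipocyte markers had values per pig for 3 of 14 genes (FABP4, LEP and CEBPA), and their summed level was 1080 to 1501 in AL and 523 to 755 in BI. These 3 had values per pig because they had been called between the breeds, so their sum does not show how the other 11 markers differed. The defining adipocyte genes ADIPOQ and PLIN1 were listed only with the authors' means over all pigs, 173 and 1567. Endothelial markers summed to 2182 to 3642 in AL and 1386 to 1982 in BI with 3 of 10 genes, skeletal muscle markers to 183 to 268 and 93.4 to 140 with 2 of 17, and no macrophage or fibroblast marker had values per pig. EGFL7 made up most of the endothelial sum, while TIE1 and CLEC14A were higher in BI, and of the muscle markers MYBPH was higher in AL and MYH7 in BI. The part of these markers and of the size factors in the results below was not tested. In bulk fat, fewer cells of a type and less RNA per cell cannot be told apart.

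The libraries were stranded, and the strand setting of the read counting is not given in the sources used here. All 50 of the 50 placed genes with the highest authors' mean had a gene on the opposite strand within 5 kb, against 64.9% of the 8286 placed genes (5374). Among the highest means were those of GYS1 (148289), TNIP1 (95238) and NDUFB10 (90634), whereas ACTB, a cytoskeletal gene abundant in most tissues, was listed at 440. Reads listed under a gene and reads of its partner on the opposite strand therefore cannot be told apart here, and the opposite-strand neighbours of each of the 3 genes are given with its values.

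The 3 genes lie on different chromosomes, and the 250 bases before each RefSeq start in Sscrofa11.1 are shown because the genes were higher in the same breed. Capitals mark the NF-Y motif CCAAT, the GC box GGGCGG and the ETS-family motif CCGGAAG on either strand.
ELAVL1, chr2:71206891-71207140, plus strand: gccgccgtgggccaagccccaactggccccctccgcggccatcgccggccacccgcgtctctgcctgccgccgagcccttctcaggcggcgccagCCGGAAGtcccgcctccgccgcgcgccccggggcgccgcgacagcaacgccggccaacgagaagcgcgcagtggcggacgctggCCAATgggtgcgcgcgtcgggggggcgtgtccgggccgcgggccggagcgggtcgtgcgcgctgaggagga
CNOT7, chr17:4950094-4950343, minus strand: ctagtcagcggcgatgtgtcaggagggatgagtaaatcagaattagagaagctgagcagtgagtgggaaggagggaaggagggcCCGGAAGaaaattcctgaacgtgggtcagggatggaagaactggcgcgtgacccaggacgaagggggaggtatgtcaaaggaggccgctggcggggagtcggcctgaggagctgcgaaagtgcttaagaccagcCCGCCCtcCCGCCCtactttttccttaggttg
STRBP, chr1:264195909-264196158, minus strand: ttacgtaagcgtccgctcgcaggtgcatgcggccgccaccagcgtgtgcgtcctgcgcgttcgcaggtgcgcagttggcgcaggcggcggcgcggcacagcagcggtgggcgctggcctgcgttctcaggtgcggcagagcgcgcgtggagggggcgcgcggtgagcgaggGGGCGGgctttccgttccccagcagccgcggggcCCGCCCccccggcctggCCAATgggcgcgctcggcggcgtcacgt
The promoters of ELAVL1 and STRBP were GC-rich, with 79.6% and 76.4% G or C, and that of CNOT7 had 58%, against a median of 57.6% over 19531 promoters of this length. ELAVL1 held 1 CCAAT, present in 31.9% of all promoters, and 1 CCGGAAG, present in 7.77%. CNOT7 held 1 CCGGAAG and 2 copies of GGGCGG, both on the opposite strand as CCGCCC, a motif found in 45.9% of promoters. STRBP held 1 CCAAT and 2 copies of GGGCGG, 1 on each strand. TATAAA (the TATA box), found in 9.76% of promoters, and TGACGTCA (the cAMP response element), found in 1.70%, were in none of the 3. None of the motifs searched was in all 3 windows. None of the motifs lies within another, and these matches are descriptions of letters and not of binding.

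Because ELAVL1 acts through AU-rich elements and CNOT7 through the tail, the ATTTA core of such elements was counted in the 3′ UTRs of the genes themselves. The 3′ UTR of ELAVL1 in this annotation had 1063 bases and no ATTTA. That of CNOT7 had 599 bases and 1 ATTTA, and that of STRBP had 16977 bases and 18 copies, 1 of them within the nonamer TTATTTATT. Per kilobase this was 1.67 in CNOT7 and 1.06 in STRBP, against a median of 1.20 over 17897 genes, of which 63.5% held the core and 7.07% the nonamer. The single site of CNOT7 and 2 windows of STRBP are shown with ATTTA in capitals, in the direction of transcription. The STRBP windows were picked as the 2 with the most A or T in 30 bases around an ATTTA, and the first holds 2 copies.
CNOT7, chr17:4934632-4934661: gcactgactgtaATTTAtttccctgtttca
STRBP, chr1:264044933-264044962: agttaatagttaATTTAtaaataATTTAat
STRBP, chr1:264033074-264033103: atttttaaaaaaATTTAaattgagttgatt
The CNOT7 site held 19 A or T among its 30 bases, and the STRBP windows held 28 and 27. Since the STRBP windows were picked for A and T, these numbers do not compare the 2 genes. In the genes with values per pig, ATTTA was present in 60.6% of the 213 UTRs of genes higher in AL and in 53.5% of the 159 UTRs of genes higher in BI, with medians of 1.01 and 0.345 per kilobase. The nonamer ran the other way, with 7 UTRs (3.29%) and 9 UTRs (5.66%), and none of these differences was tested.

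ELAVL1 (ENSSSCG00000013592, chr2:71207141-71245863, plus strand, 6 exons) had about the same level in every AL pig and a lower one in every BI pig. Its normalized counts were 130.4, 111.5, 122.6 and 123.5 in AL pigs 44, 49, 52 and 63, and 65.0, 41.9, 67.1 and 74.2 in BI pigs 25, 34, 36 and 37. The breeds did not overlap, with a gap of 37.4 normalized counts between the lowest AL pig and the highest BI pig, and BI pig 34 was lowest. The means were 122 ± 7.78 in AL and 62.0 ± 14.0 in BI (SD, n = 4 each), a ratio of 1.97. The log2 fold change (FC) on the log2(normalized count + 1) scale was 0.99 (SE 0.25, 95% interval 0.44 to 1.54), with an adjusted p of 0.00619 in limma, adjusted by Benjamini-Hochberg over the 458 genes. The two-sided exact permutation p was 0.0286, the smallest that 4 pigs against 4 allow.

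ELAVL1 rested on 88, 123, 114 and 93 reads in AL and on 85, 61, 71 and 89 in BI. Before scaling the breeds therefore overlapped, since AL pig 44 with 88 reads lay under BI pig 37 with 89. The AL pigs varied by 6.38% (coefficient of variation), less than the 9.96% that read counting alone gives at this depth, while the BI pigs varied by 22.5% against 11.5%. Across the 458 genes the SD of the log2 values within breeds had a median of 0.45, and that of ELAVL1 was 0.26, with 54 genes below it. Upstream of ELAVL1 lies CCL25, a chemokine gene, on the opposite strand with a gap of 190 bases, so that the promoter window shown above runs into its start. CCL25 was not analysed here, and no exon of another gene overlapped ELAVL1.

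CNOT7 (ENSSSCG00000006983, chr17:4934379-4950093, minus strand, 7 exon blocks in 4 transcripts) had the widest ratio of the 3 genes. Its normalized counts were 65.2, 39.9, 38.7 and 54.5 in AL pigs 44, 49, 52 and 63, and 7.65, 12.4, 12.3 and 24.2 in BI pigs 25, 34, 36 and 37. AL pigs 44 and 63 were high and pigs 49 and 52 close together, BI pig 37 was highest and pig 25 lowest in BI, and the breeds did not overlap. The means were 49.6 ± 12.6 and 14.1 ± 7.05 (SD, n = 4 each), a ratio of 3.51. The log2 FC was 1.82 (SE 0.34, 95% interval 1.07 to 2.56), with an adjusted p of 0.00356 in limma and a two-sided exact permutation p of 0.0286.

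The reads behind CNOT7 were 44, 44, 36 and 41 in AL and 10, 18, 13 and 29 in BI, which did not overlap before scaling either. The exact Poisson 95% interval of BI pig 37, 16.2 to 34.7 normalized counts, reached into those of AL pigs 49 (28.99 to 53.6) and 52 (27.1 to 53.6), and these intervals cover counting error only. The variation between pigs was 25.5% in AL and 49.97% in BI, and counting alone gives 15.9% and 24.1%. Its first exon is overlapped by VPS37A, a gene of endosomal sorting on the opposite strand, over 442 exonic bases or 19.7% of its exon length, and the promoter window lies in the first intron of VPS37A. VPS37A itself was not analysed here.

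On the 3′ side of CNOT7, 6269 bases away with its end facing that of CNOT7, lies ZDHHC2, a palmitoyltransferase gene on the opposite strand. ZDHHC2 had 25.2, 29.9, 25.8 and 14.6 normalized counts in AL pigs 44, 49, 52 and 63, and 0, 5.50, 11.3 and 9.17 in BI pigs 25, 34, 36 and 37. Its breeds did not overlap, with a log2 FC of 2.17 (SE 0.66, limma adjusted p = 0.0105), which fitted against a pig at 0 depends on the pseudocount. Under the 3 other scalings described below it was not called, with adjusted p from 0.0577 to 0.0808 in limma and edgeR. Centred on the breed means, its log2 values had a correlation of 0.58 with those of CNOT7 over the 8 pigs, given as a description of values from the same libraries. Whether reads of 1 of these genes were listed under the other was not tested.

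**Figure D1:**
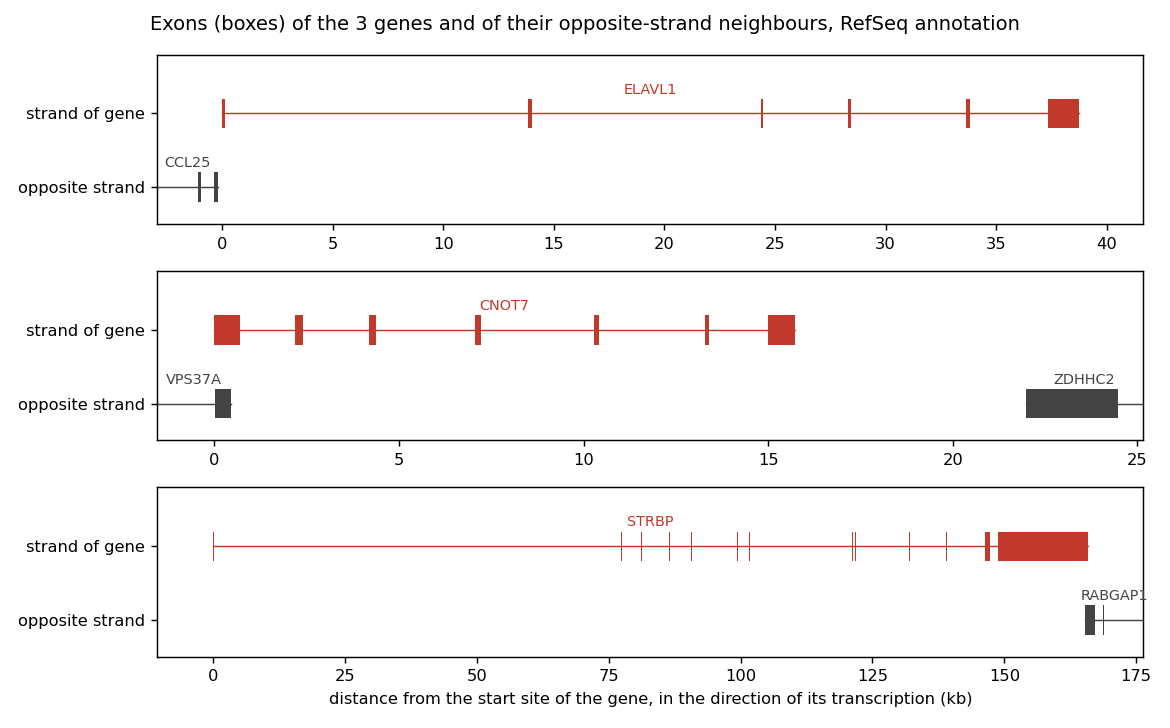
Exons of ELAVL1, CNOT7 and STRBP (red boxes) and of the genes nearest to them on the opposite strand (grey boxes) by distance from the start site in kb, with 1 panel per gene. VPS37A overlaps the first exon of CNOT7 by 442 bases and RABGAP1 the last exon of STRBP by 441 bases, whereas CCL25 lies 190 bases from ELAVL1 and ZDHHC2 lies 6269 bases from CNOT7.

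STRBP (ENSSSCG00000005582, chr1:264030135-264195908, minus strand, 19 exon blocks) was the lowest of the 3 genes. Its normalized counts were 16.3, 27.2, 24.7 and 21.2 in AL pigs 44, 49, 52 and 63, and 3.06, 6.87, 7.56 and 10.8 in BI pigs 25, 34, 36 and 37. The breeds did not overlap, with a gap of 5.46 between AL pig 44, the lowest of AL, and BI pig 37, the highest of BI. The means were 22.4 ± 4.73 and 7.08 ± 3.19 (SD, n = 4 each), a ratio of 3.16. The log2 FC was 1.61 (SE 0.34, 95% interval 0.87 to 2.35), with an adjusted p of 0.00432 in limma and a two-sided exact permutation p of 0.0286. With a pseudocount of 10 in place of 1 the log2 FC of STRBP was 0.93, since its BI levels lay near that pseudocount.

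STRBP rested on 11, 30, 23 and 16 reads in AL and on 4, 10, 8 and 13 in BI, and before scaling AL pig 44 lay under BI pig 37. The exact Poisson intervals of these pigs, 8.13 to 29.2 and 5.77 to 18.5 normalized counts, overlapped, so that this pair could not be told apart at this depth. Other pairs overlapped too. The interval of BI pig 37 reached into those of all 4 AL pigs, and those of BI pigs 34 and 36 reached into those of AL pigs 44 and 63. Counting alone gives a variation of 22.8% in AL and 34.04% in BI, and the pigs varied by 21.1% and 45.1%. The last exon of STRBP shares 441 bases, 2.17% of its exon length, with RABGAP1 on the opposite strand, a GTPase-activating gene with an authors' mean of 3.49.

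**Figure D2:**
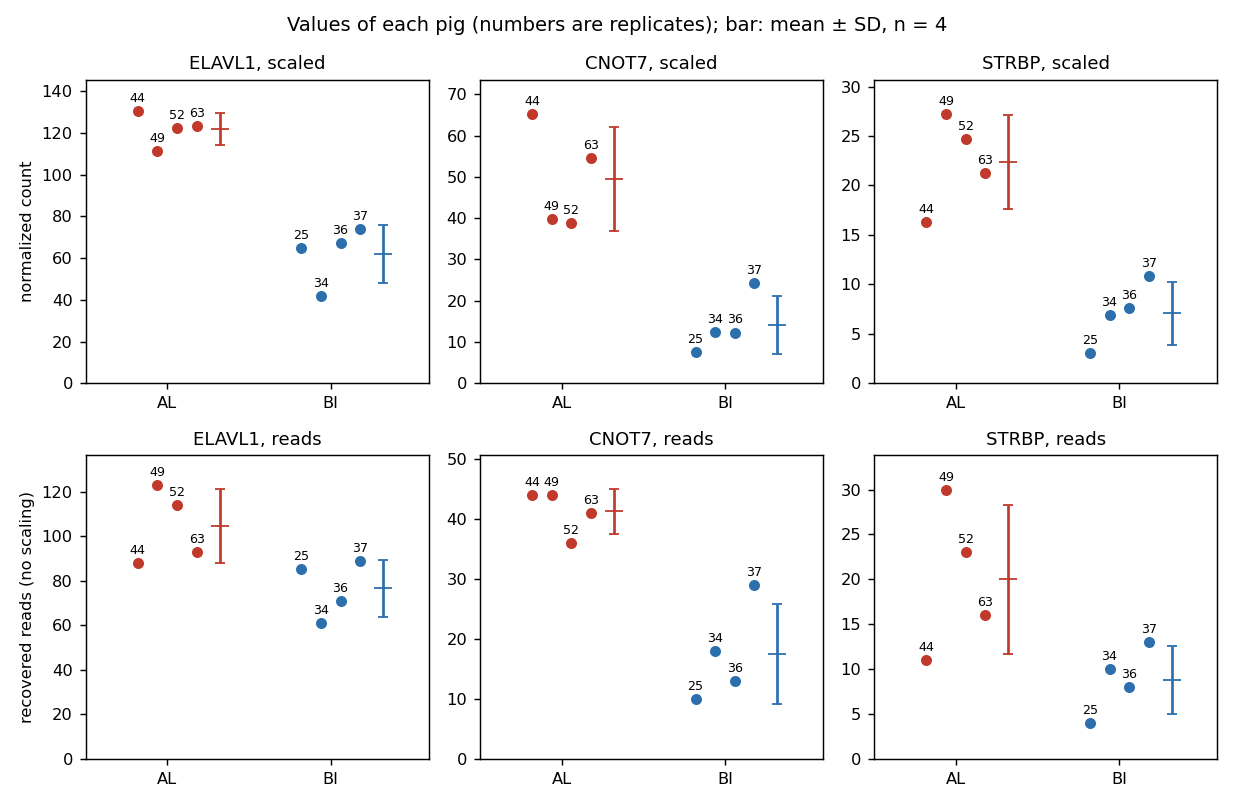
Normalized counts (top row) and recovered reads before scaling (bottom row) of ELAVL1, CNOT7 and STRBP in each pig, labelled by replicate number, with the mean and SD of each breed (n = 4) as bars. All AL pigs lie above all BI pigs in the top row, while in the bottom row ELAVL1 (88 against 89 reads) and STRBP (11 against 13 reads) overlap by 1 pig each.

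All 3 genes were called higher in AL, as were 262 of the 458 genes (57.2%), and none overlapped between breeds, as held in this direction for 221 genes (48.3%). These shares are high because the table was made of called genes, and nothing about the 3 genes is read from the counts. Among the 263 genes with a positive log2 FC, whose median was 1.09, 32 had a larger log2 FC than CNOT7, 46 than STRBP and 167 than ELAVL1. By the authors' means over all pigs, 92.0 for ELAVL1, 31.8 for CNOT7 and 14.7 for STRBP, 17.0%, 31.1% and 48.1% of the 10710 genes had a larger mean. Per kilobase of exon the mean levels were 55.8 for ELAVL1, 22.1 for CNOT7 and 1.10 for STRBP in AL, and 28.4, 6.30 and 0.349 in BI. The order of the levels was the same in both breeds. The value of STRBP was divided by 20311 RefSeq exonic bases, most of them 3′ UTR. The counts carry Ensembl gene IDs, so the exons that were counted may differ and the values per kilobase are approximate.

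BI pig 37 was the highest BI pig for all 3 genes, and BI pig 25 was the lowest for CNOT7 and STRBP but not for ELAVL1. AL pig 44 was the highest AL pig for ELAVL1 and CNOT7 and the lowest for STRBP. Centred on the breeds, the log2 values of CNOT7 and STRBP had a correlation of 0.54 over the 8 pigs, those of ELAVL1 and CNOT7 0.34, and those of ELAVL1 and STRBP 0.02. The correlations differed between breeds for each pair. In the 4 AL pigs they were −0.95 for CNOT7 and STRBP, 0.77 for ELAVL1 and CNOT7 and −0.89 for ELAVL1 and STRBP, and in the 4 BI pigs they were 0.93, 0.29 and 0.13. These values share libraries and size factors, and with 4 pigs a breed they carry no test.

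ELAVL1 was not called under 3 other scalings. When size factors were recomputed over the 458 genes by the median of ratios, the median log2 FC of all genes moved by −0.51 and the log2 FC of ELAVL1 was 0.48 (limma adjusted p = 0.0615), with 102 genes called higher in AL (22.3%). With the upper quartile the shift was −0.64 and ELAVL1 had 0.35 (limma adjusted p = 0.181), with 60 genes called (13.1%). With TMM in edgeR the shift was −0.62 and ELAVL1 had 0.39 (quasi-likelihood adjusted p = 0.178), with 79 genes called (17.2%). CNOT7 stayed called under these 3 scalings, with log2 FC of 1.33, 1.20 and 1.25, and so did STRBP, with 1.15, 1.03 and 1.10. Relative to the median log2 FC of the 458 genes, 0.83, the difference of ELAVL1 was 0.17, that of CNOT7 0.99 and that of STRBP 0.78. That median mixes 263 genes higher in AL with 195 higher in BI and is no baseline. ELAVL1 lay below the median of 1.09 of the genes higher in AL. With the median of ratios the lowest AL pig had 87.9 and the highest BI pig 89.5 scaled counts of ELAVL1, so that its breeds overlapped, whereas those of CNOT7 and STRBP did not. The 458 genes scaled over here were those called between the breeds, whereas DESeq2 takes its factors from all genes counted. More of the 458 were called higher in AL (57.2%) than in BI (42.1%), and these scalings moved genes higher in AL toward 0. Which scaling is right for these libraries was not tested.

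**Figure D3:**
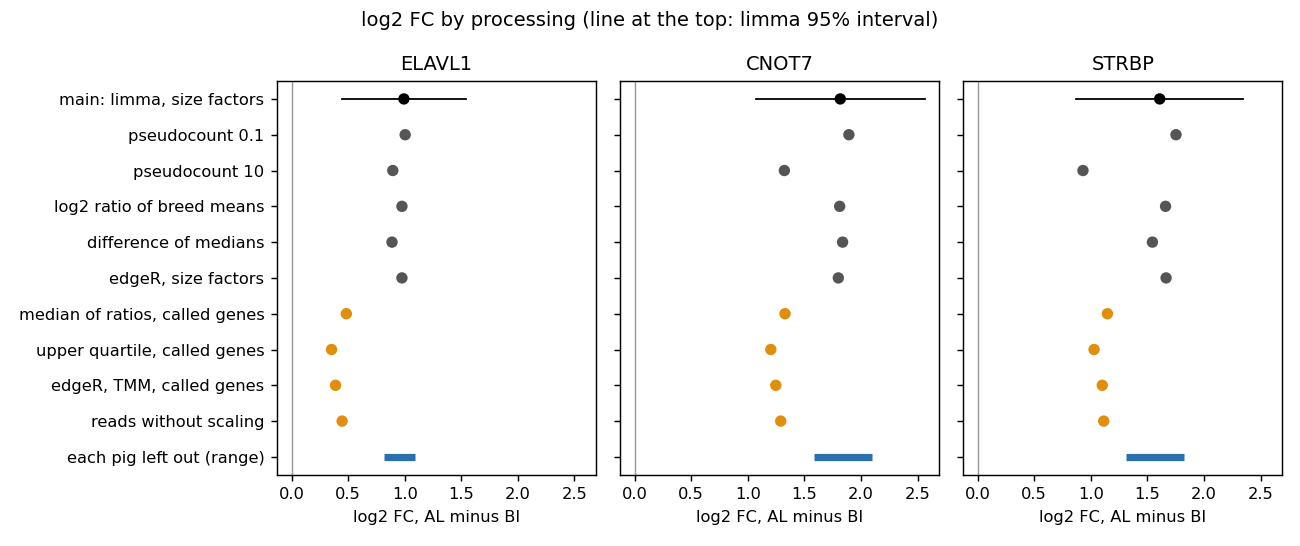
The log2 FC (AL minus BI) of the 3 genes as reported, with its 95% interval, and under other settings as 1 point each, with the range over each pig left out as a blue bar. Orange points use another scaling or none and lie below the reported value for every gene, down to 0.35 for ELAVL1, whereas leaving out 1 pig kept ELAVL1 at 0.82 or above, CNOT7 at 1.58 or above and STRBP at 1.31 or above.

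The genes with the most similar profile over the 8 pigs, after centring on the breeds, were named by a fixed number of 3 per gene. For ELAVL1 they were PDZD9 (correlation 0.92), RIBC1 (0.90) and C16orf74 (0.85). For CNOT7 they were PTGDR2, a prostaglandin receptor (0.98), OXA1L, which inserts proteins into the inner mitochondrial membrane (0.94), and CCDC38 (0.93). For STRBP they were SH2D7 (0.99), ARVCF, a catenin (0.96), and MED4, a subunit of Mediator (0.96). Each of the 9 was called higher in AL, as were 57.2% of the 458 genes, from a log2 FC of 0.75 for PDZD9 to 2.30 for ARVCF. The limit on strand given above holds for these 9 as well, whose opposite-strand neighbours are not given here. MED4 had levels close to those of STRBP, 13.3 to 30.1 in AL and 2.29 to 12.5 in BI. Picked as the best of all named genes over 8 pigs, such values are descriptions only.

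The rest of the machinery was read from 7 lists of RNA-binding and decay genes, 178 genes in all, of which 11 had values per pig. Only called genes had such values, 458 of the 10710 genes with an authors' mean. List genes with a mean but no values per pig were thus measured and not called. AL had the higher level in 8 of these 11 and BI in 3, and without the 3 genes themselves AL had it in 5 of 8. In the table as a whole 57.2% were called higher in AL and 42.1% higher in BI. Under each of the 3 other scalings 4 of the 11 stayed called higher in AL, namely CNOT7, STRBP, CPSF2 and WDR61, and NOVA2, PABPC4 and INTS11 were called higher in BI in each. Over all 458 genes the shares called under these scalings were 22.3%, 13.1% and 17.2% in AL and 42.1%, 42.1% and 42.6% in BI, for the median of ratios, the upper quartile and TMM. Of 21 decapping genes 14 had an authors' mean, and of 14 genes of nonsense-mediated decay 12 had one. None of these had values per pig, so none was among the called genes.

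Among binders of AU-rich elements and 3′ UTRs, 2 of 38 genes had values, ELAVL1 and NOVA2, a neuronal splicing regulator. NOVA2 was higher in BI, with 12.4 to 32.9 normalized counts against 2.72 to 10.6 in AL (log2 FC −1.74, SE 0.41, limma adjusted p = 0.00521). The paralogs ELAVL2, ELAVL3 and ELAVL4 were not analysed here.

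Among genes of deadenylation and poly(A) binding, 2 of 37 had values, CNOT7 and PABPC4, a cytoplasmic poly(A)-binding protein. PABPC4 was higher in BI, at 25.8 to 45.3 against 8.0 to 18.1 in AL (log2 FC −1.33, SE 0.30, limma adjusted p = 0.00488). The paralog of CNOT7, CNOT8, had an authors' mean of 15.1 over all pigs and no values per pig. The deadenylase and the tail binder in this list thus differed in opposite directions between the breeds.

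Among binders and sensors of double-stranded RNA, 2 of 25 had values, STRBP and DDX58, the RIG-I sensor. DDX58 was at 827 to 1021 in AL and 377 to 631 in BI (log2 FC 0.90, SE 0.26, limma adjusted p = 0.00918). It was no longer called under the other scalings, with adjusted p from 0.0768 to 0.226 in limma and edgeR. ZFR, a relative of STRBP, had an authors' mean of 3.84 over all pigs and no values per pig.

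The exosome list had values for RBM7, a subunit of the nuclear exosome targeting complex, and WDR61, a subunit of the SKI complex, in 2 of 24 genes. WDR61 was at 143 to 291 in AL and 54.3 to 119 in BI (log2 FC 1.38, SE 0.34, limma adjusted p = 0.00549), and RBM7 at 66.4 to 91.6 and 30.9 to 58.1 (log2 FC 0.98), which was not called under the other scalings. Of 19 cleavage and polyadenylation genes, 3 had values. CPSF2, a subunit of the cleavage and polyadenylation factor, was at 235 to 361 in AL and 96.2 to 176 in BI (log2 FC 1.21, SE 0.29, limma adjusted p = 0.00549). CPSF7, which helps to choose the poly(A) site, was at 90.3 to 162 and 43.96 to 68.3 (log2 FC 0.89), and was not called under the other scalings. INTS11, the nuclease of the Integrator complex, was higher in BI, at 349 to 811 against 159 to 310 in AL (log2 FC −1.27, SE 0.33, limma adjusted p = 0.00659).

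A last list held transcripts known for AU-rich elements and fast decay, mostly immediate early genes. ELAVL1 and CCR4-NOT are known to act on RNA of this kind, but binding or decay was not measured in these pigs. Of 37 such genes 33 had an authors' mean and 16 had values per pig, beside 458 of 10710 genes in the whole series. All 16 were called higher in BI, where 42.1% of the table was called. The list was chosen with earlier results of these data known, so this count is a description and not a test. Their median log2 FC was −1.33, against 0.83 over all genes of the table, which mixes both directions. FOSB had 31.7 to 102 normalized counts in AL and 195 to 291 in BI (log2 FC −2.10, SE 0.34, limma adjusted p = 0.00329). DUSP1, a phosphatase of MAP kinases, had 30.8 to 62.4 and 94.8 to 201 (log2 FC −1.48), and CSRNP1 had 2.72 to 15.9 and 18.4 to 44.6 (log2 FC −1.72). The breeds did not overlap in 10 of the 16, as held in this direction for 31.2% of the table. That share counts genes of both directions. Beside the 193 genes called higher in BI it stands for 143 genes, and nothing about the 16 is read from this count. ATF3 (log2 FC −2.17), KLF6 (log2 FC −1.41) and ICAM1 (log2 FC −1.53) were called too, but their breeds overlapped. The 16 genes stayed called higher in BI under the 3 other scalings, with medians of −1.83, −1.96 and −1.97. Those scalings shifted log2 FC toward BI (median shifts of −0.51, −0.64 and −0.62) and so moved genes higher in BI away from 0. Keeping the call was therefore no test of these genes. Whether these differences and those of ELAVL1, CNOT7 and STRBP are related was not tested.

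**Figure D4:**
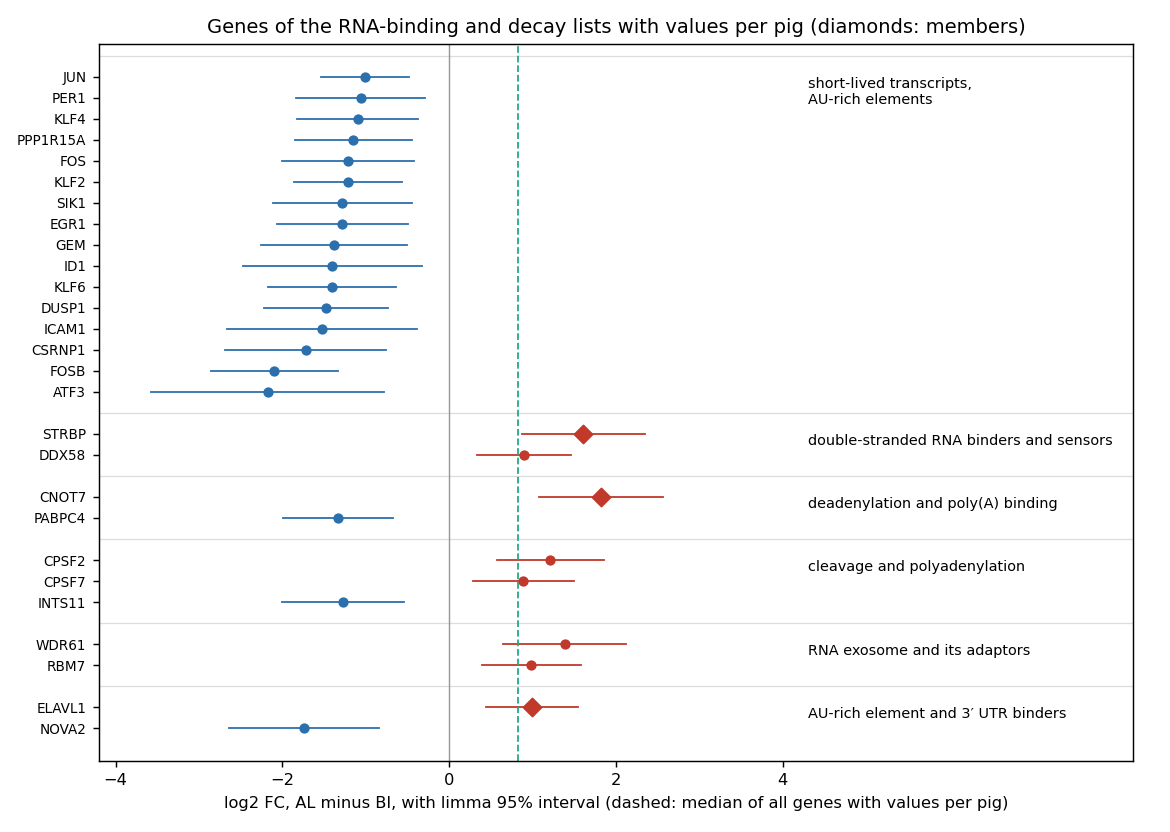
The log2 FC (AL minus BI) with its limma 95% interval for the 27 genes of the lists with values per pig, in red for genes higher in AL and in blue for genes higher in BI, with diamonds for ELAVL1, CNOT7 and STRBP. The 16 short-lived transcripts lie left of 0, while 8 of the 11 other genes lie right of it, beside a median of 0.83 (dashed) over the 458 genes.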

How the data were processed

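Backfat RNA of 4 AL and 4 BI pigs was sequenced by the authors as stranded mRNA libraries read from both ends, with, per the labels, Trim Galore 0.5.0, HISAT2 2.1.0 on Sscrofa11.1, SAMtools 1.9, HTSeq 0.11.1 and DESeq2. Deposited signal values per pig are normalized counts, reads over the size factor that the authors' DESeq2 run gave that pig, for 458 called genes. A second table gives the authors' mean of this signal for 10710 genes, of which 8923 IDs (83.3%) matched a symbol. The authors' own fold changes, errors, statistics and p-values in it were not used.

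Whole reads were recovered from the steps of the signal (100% of values within 0.01 of a whole read). The log2(normalized count + 1) values were fitted with limma 3.58.1 across the 458 genes, two-sided, adjusted by Benjamini-Hochberg, with a threshold of 0.05, and an exact permutation test over 70 assignments of the pigs was run beside it. Other settings used edgeR 4.0.16, other scalings, pseudocounts and a filter. The scripts were tested on simulated data. Intervals of single pigs are exact Poisson 95% intervals of the reads.

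The 3 genes, the lists and the marker lists were chosen with earlier results of these data known. Other genes named were the 3 most alike to each member, list genes with values per pig (the 6 with the largest absolute log2 FC where more than 6), neighbours and paralogs. Positions, exon lengths, exon overlaps, promoters and UTRs came from RefSeq annotation and sequence of Sscrofa11.1, matched by symbol. The deposited counts carry Ensembl gene IDs, and the exons counted for them may differ from those of RefSeq. The labels do not name a batch. A few single-gene results are not given here, and the list counts leave those genes out.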

Additional observations from a re-analysis of the deposited data

Results flagged for a closer look

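In 2 of 54 breed groups of the 27 genes named by rule, 1 pig lay far from the other 3 of its breed by Dixon's 95% criterion, which chance alone flags in about 1 of 20 groups. CCDC38, one of the genes most alike to CNOT7, had 764.4 normalized counts in AL replicate 44 and 552 to 586 in the other AL pigs. FOSB, a short-lived transcript, had 195.0 normalized counts in BI replicate 37 and 283 to 291 in the other BI pigs. None of ELAVL1, CNOT7 and STRBP had such a pig in either breed.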

How the results depend on the processing

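No paired analysis was run, since the AL and BI pigs were separate animals and the labels give no pairing. The log2 FC of ELAVL1 kept its sign but lost its call with the median of ratios (0.48), the upper quartile (0.35) and TMM in edgeR (0.39), each over the 458 genes, and with recovered reads without scaling (0.45, exact permutation p = 0.0571), an alternative chosen after seeing the data. STRBP lost its call only with unscaled reads (1.11, exact permutation p = 0.0571), and CNOT7 kept its direction in the 11 settings run besides pigs left out, and its call in those with a test. Leaving out each pig gave 0.82 to 1.09 for ELAVL1, 1.58 to 2.099 for CNOT7 and 1.31 to 1.82 for STRBP, with adjusted p in limma up to 0.0169, 0.0108 and 0.0130. The count of called genes, 455, fell to 295 with the median of ratios, 253 with the upper quartile and 274 with TMM, and to 295 of 295 with only genes of mean 50 or more, a filter that CNOT7 and STRBP do not pass. Leaving out pigs gave 433 to 455. Of the called genes 57.6% were higher in AL, against 34.6%, 23.7% and 28.8% under the 3 scalings and 72.2% under the filter. The 364 genes without overlap became 236 with the upper quartile, 212 with unscaled reads, and 368 to 411 with 1 pig left out. The cause of these shifts was not tested. Depth limits STRBP most, with 4 to 13 reads per BI pig.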
